A study of Drosophila melanogaster with 9 samples.

Results

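The microRNAs of testes and of ovaries were compared within 1 strain of Drosophila melanogaster, Z56. Every mature microRNA of the deposited table that had a read in either Z56 library was taken, once each: 280 of the 465 mature microRNAs listed, with 269 detected in testes and 182 in ovaries. The series holds 9 samples, of which 2 are these libraries; Canton-S testes, ovaries and carcass, each 1 small RNA library, serve here only for values set beside them. The Z56 and Canton-S flies were adults aged 3 to 5 days, reared at 25 °C, and the labels give no treatment, transgene or mutation for either strain; whether the flies of a library were pooled, and how many there were, is not given in the sources used here. With 1 library per tissue there is no replicate check and no test. Ratios therefore carry exact 95% intervals that cover counting error only, since reads copied by PCR are not independent molecules.

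A microRNA gene is transcribed into a hairpin whose stem is cut to a short duplex. Either strand, the 5p or the 3p arm, can be loaded into an Argonaute protein, where its seed guides the repression of messenger RNAs. Many fly microRNA genes lie in tandem and are transcribed together, so the arms of a cluster tend to appear in the same tissue. In the gonads, microRNAs act both in germ cells and in the somatic cells around them, such as follicle cells and border cells of the ovary and the muscle sheath of the testis.

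The ovary library was dominated by 1 microRNA and the testis library was more even. miR-184-3p, which female germ line development requires, had 86358 reads (62737 RPM) in testes and 304256 (447373 RPM) in ovaries, or 44.7% of ovary reads (44.6% to 44.9%) and 6.27% of testis reads (6.23% to 6.31%). It ranked first in ovaries, was behind miR-1-3p, miR-275-3p, let-7-5p and miR-34-5p in testes, and was 7.13-fold higher in ovaries (95% counting interval 7.08 to 7.19). The 5 most abundant microRNAs held 81.7% of ovary and 62.5% of testis reads, and 90% of the reads fell on 11 microRNAs in ovaries and on 25 in testes. Of the 10 most abundant in each tissue 6 were shared, among them miR-275-3p, let-7-5p and miR-312-3p. The testis library was led by miR-1-3p, the microRNA of muscle, at 198318 RPM (microRNA reads scaled to a common library total) against 80287 in ovaries. Fewer cells of a type and less RNA per cell cannot be told apart in such whole-organ libraries.

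**Figure D1:**
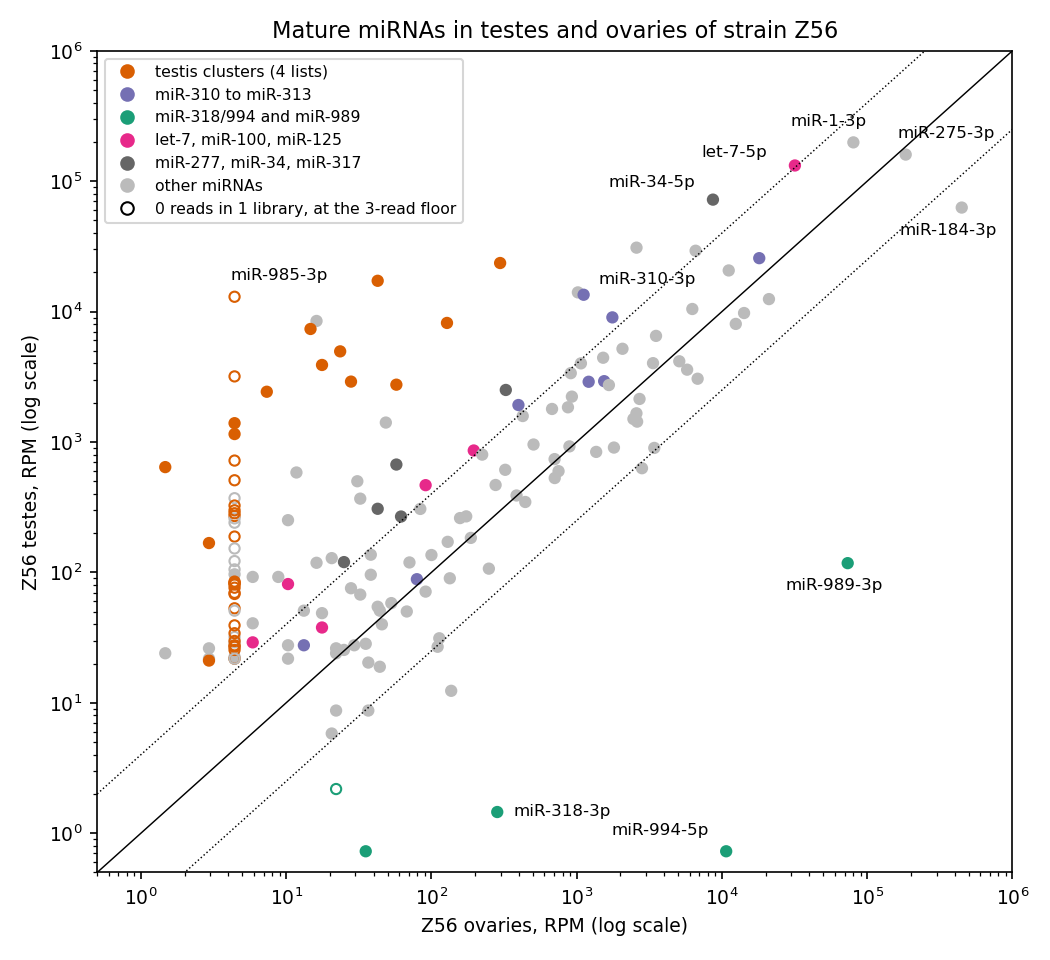
Each point is 1 of the 170 mature microRNAs with at least 20 RPM in either Z56 library, with its RPM in ovaries on the horizontal and in testes on the vertical axis, both on log scales. The solid line marks equal RPM, the dotted lines 4-fold, and open points had 0 reads in 1 library and are drawn at 3 reads; the cluster arms in orange lie above the upper dotted line and miR-989-3p and miR-318-3p far below it.

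Most microRNAs took a larger share of the reads in testes. A ratio was computed for the 170 microRNAs with at least 20 RPM in either library. Of these, 83 were at least 4-fold higher in testes (48.8% of the 170), 10 were at least 4-fold higher in ovaries (5.88%) and 77 lay between. The median log2 ratio of testes to ovaries was 1.90. The level of miR-184-3p sets part of this median by arithmetic, because RPM are shares: leaving its reads out of both totals lowered every log2 ratio by the same amount and brought the median to 1.14. TMM scaling, which centres on the bulk of the microRNAs, lowered each log2 ratio by 0.94, which gave 57 higher in testes (33.5%) and 17 in ovaries (10%), so that testes held 77% of the microRNAs past 4-fold instead of 89.2%. Ratios below are on RPM, and the ratio under TMM is given for each named microRNA whose interval excludes 1 and whose TMM ratio lies on the other side of 1.

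Counts of 0 make up much of the testis side. Of the 170 microRNAs, 35 had no read in ovaries and 1 had none in testes. A count of 0 allows up to 3 reads, which is 4.41 RPM in ovaries and 2.18 in testes, so any microRNA that reached 20 RPM in 1 library against 0 in the other had to pass 4-fold. Without those microRNAs, 48 were at least 4-fold higher in testes and 9 in ovaries. The testis library was also 2.02 times as deep, at 1376516 microRNA reads against 680094. Counting intervals lay wholly past 4-fold for 66 microRNAs toward testes and 8 toward ovaries, and 18 intervals included equal levels.

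Arms of 4 tandem clusters made up most of the top of the testis side. These clusters have been described as fast-evolving microRNA genes of the Drosophila testis. Together they took 132458 of the testis reads, 9.62% (9.57% to 9.67%), and 430 of the ovary reads, 0.0632% (0.0574% to 0.0695%), a difference of 152-fold (138 to 168). Of their 46 arms, 38 reached 20 RPM and all 38 were at least 4-fold higher in testes, against 48.8% of all microRNAs. Of the 38, 24 had no ovary read and so had to pass 4-fold, which leaves only the other arms free to fall short. The 48.8% also holds microRNAs at 0 reads. Without those, 48 of 134 microRNAs passed toward testes. Under TMM 32 of the 38 kept at least 4-fold. The clusters were chosen with such results known, so their direction is a description.

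The miR-959 to miR-964 cluster, 297-fold (95% counting interval 241 to 370) higher in testes when summed, was sequenced from both arms of each hairpin. Its most abundant arm, miR-964-5p, had 23699 reads (17217 RPM) in testes and 29 (42.6 RPM) in ovaries and was 404-fold higher in testes (95% counting interval 281 to 603). miR-959-3p had 10121 reads (7353 RPM) in testes and 10 (14.7 RPM) in ovaries, and miR-960-3p had 6816 reads (4952 RPM) in testes and 16 (23.5 RPM) in ovaries. The least abundant arm, miR-963-3p, had 38 reads against 0, while its partner arm miR-963-5p had 883 reads (641 RPM) in testes and 1 (1.47 RPM) in ovaries. The log2 ratios of the 12 arms ran from 2.65 to 8.97 with a median of 7.87, and the lowest is a bound set by 0 ovary reads.

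The miR-972 to miR-979 cluster was not detected in ovaries at all: its arms had 7539 testis reads and 0 ovary reads, so it was at least 1242-fold higher in testes, with 3 ovary reads over the whole group as the floor. In the Release 6 RefSeq annotation, the neighbouring hairpins also include mir-9369, mir-4966 and mir-2499. All 17 counted arms of that run of 11 hairpins had 0 ovary reads, and the run had 9008 testis reads. miR-974-5p took the largest part, 3183 RPM in testes, followed by miR-975-5p with 991 reads and miR-977-3p with 700. Then came the 3p arm of mir-9369 with 510 and that of mir-979 with 448. No arm of this run had a read in the ovary library.

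The neighbours mir-982, mir-303, mir-983 and mir-984 gave 47786 testis reads and 330 ovary reads, and mir-985, which lies apart from them in the annotation, was read only in testes. miR-982-5p had 32435 reads (23563 RPM) in testes and 202 (297 RPM) in ovaries and was 79.3-fold higher in testes (95% counting interval 69.1 to 91.6), and miR-984-5p had 11259 reads (8179 RPM) in testes and 87 (128 RPM) in ovaries. These were also the arms of the 4 clusters with most ovary reads. miR-985-3p had 17876 testis and 0 ovary reads and was 2944-fold higher with 3 ovary reads set as the floor. The exact 95% lower limit for a count of 0 lies below such a floor ratio. The reads of miR-983-5p, 3785 against 39, cannot be assigned to either of its hairpin copies.

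**Figure D2:**
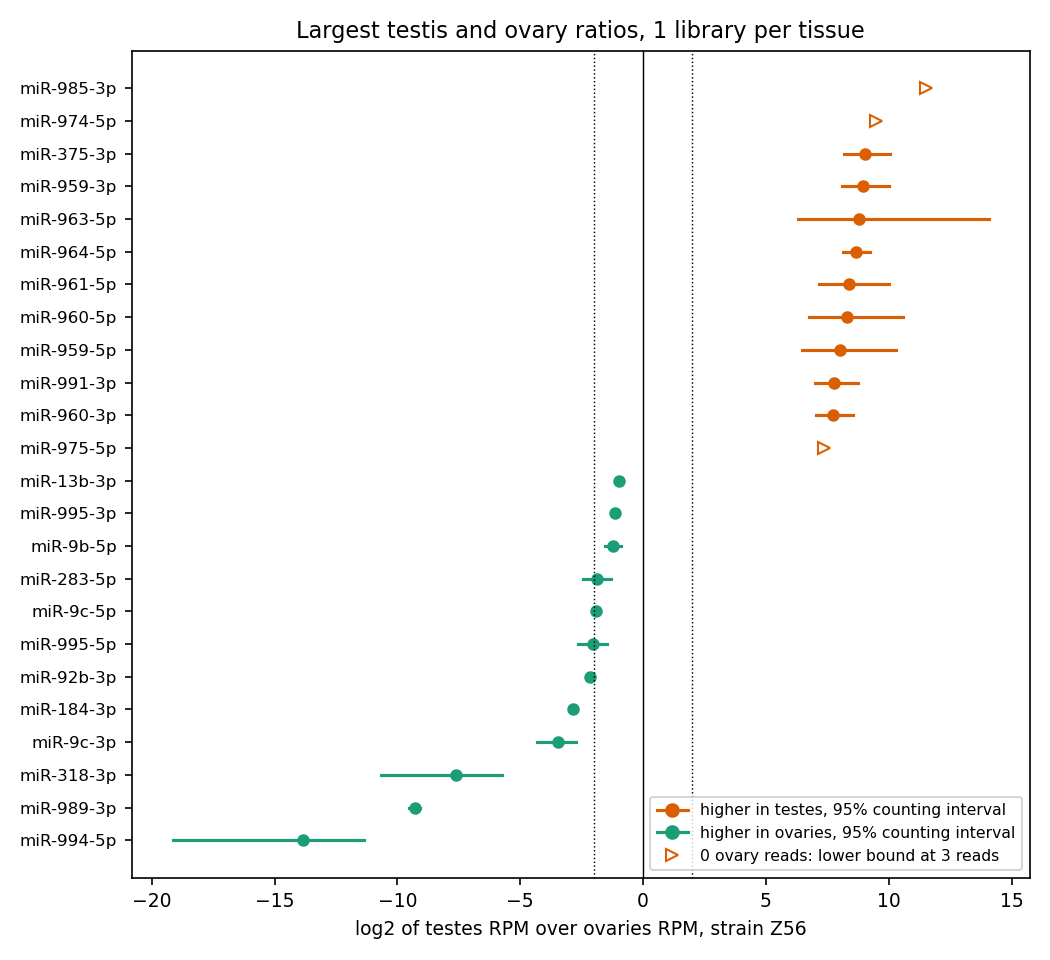
Points give the log2 ratio of testes to ovaries RPM in Z56 for the 12 largest ratios in each direction among microRNAs with at least 100 RPM in the higher tissue, with bars for the 95% counting interval. Open triangles are lower bounds for microRNAs with 0 ovary reads; dotted lines mark 4-fold, and the lower ovary entries, such as miR-13b-3p, lie inside it.

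The run that holds the miR-310 cluster combined arms of very unequal tissue ratio. In the annotation mir-310, mir-311, mir-312 and mir-313 neighbour mir-2498, mir-991 and mir-992. The last group was nearly absent from ovaries: miR-991-3p had 5361 reads (3895 RPM) in testes and 12 (17.6 RPM) in ovaries, miR-2498-3p had 372 reads against 0 and miR-991-5p 412 against 0. The miR-310 to miR-313 hairpins were abundant in both organs, at 5.6% of testis and 2.42% of ovary reads. All 13 counted arms of the run were higher in testes by RPM, 8 of them (61.5%, against 48.8% of all microRNAs) at least 4-fold, with log2 ratios from 0.16 to 7.79. The 8 were 5 arms of miR-991, miR-992 and miR-2498 and 3 of the 8 counted arms of miR-310 to miR-313. Of the 5, 4 had 0 ovary reads and so had to pass. Under TMM 5 of the 13 were at least 4-fold higher in testes, and miR-310-5p, miR-312-3p and miR-313-5p lay on the ovary side.

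Within the miR-310 to miR-313 group, whose 3p arms have the seed of the conserved miR-92 family, the 3p arms had unequal ratios. miR-312-3p had 35340 reads (25674 RPM) in testes and 12281 (18058 RPM) in ovaries and was 1.42-fold higher in testes (95% counting interval 1.39 to 1.45); under TMM the ratio was 0.742. miR-311-3p had 12421 reads (9024 RPM) in testes and 1197 (1760 RPM) in ovaries and was 5.13-fold higher in testes (95% counting interval 4.83 to 5.44). miR-310-3p had 18523 reads (13456 RPM) in testes and 759 (1116 RPM) in ovaries and was 12.1-fold higher in testes (95% counting interval 11.2 to 13). The order of these arms in testes was therefore miR-312, miR-310, miR-311 and in ovaries miR-312, miR-311, miR-310. miR-313 was read mostly from its 5p arm, 4027 against 38 reads in testes, and miR-313-5p was 1.89-fold higher in testes (95% counting interval 1.77 to 2.03), or 0.988 under TMM. The ratio of miR-313-3p was 2.09, with an interval that includes 1 (0.991 to 4.91). miR-310-5p, with 122 and 54 reads, had an interval that includes 1 (0.804 to 1.57) and a ratio of 0.583 under TMM. How reads shared by near-identical arms were assigned is not given in the sources used here, so the split among these 3p arms is uncertain.

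The relatives of that family ran the other way. miR-92b-3p had 866 reads (629 RPM) in testes and 1914 (2814 RPM) in ovaries and was 4.47-fold higher in ovaries (95% counting interval 4.13 to 4.85). miR-92a-3p had 2283 reads (1659 RPM) in testes and 1753 (2578 RPM) in ovaries and was 1.55-fold higher in ovaries (95% counting interval 1.46 to 1.65). Summed with their 5p arms, the pair took 0.61% of ovary and 0.282% of testis reads, far less than the 2.42% and 5.6% of the miR-310 to miR-313 group.

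A few microRNAs were close to specific for the ovary. miR-994 and miR-318 are neighbouring genes that are expressed in follicle cells, and miR-989 acts in the migration of border cells. miR-994-5p had 7271 reads in ovaries and 1 in testes, and was 14717-fold higher in ovaries (95% counting interval 2640.5 to 581352). miR-989-3p, the fourth most abundant ovary microRNA, had 162 reads (118 RPM) in testes and 49904 (73378 RPM) in ovaries and was 623-fold higher in ovaries (95% counting interval 534 to 732). miR-318-3p had 193 against 2 reads and was 195-fold higher in ovaries (95% counting interval 53.3 to 1624), so within 1 cluster miR-994-5p was far more abundant than miR-318-3p. The passenger arms followed at low levels: miR-989-5p had 24 ovary reads against 1, and miR-994-3p 15 against 0. In the testis library miR-994-5p and miR-318-3p were thus at or under 3 reads, while miR-989-3p kept 118 RPM. Of the 4 testis clusters, the arms with most reads in the ovary library were miR-982-5p at 297 RPM and miR-984-5p at 128 RPM.

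The remaining ovary-biased microRNAs had smaller ratios. The cluster of miR-9c, miR-306, miR-79 and miR-9b, reported to limit germ cell number through nanos, was 2.47-fold (95% counting interval 2.36 to 2.58) higher in ovaries when summed. Of its 6 counted arms 2 were at least 4-fold higher in ovaries, against 5.88% of all microRNAs, and its median log2 ratio of testes to ovaries was -1.57; under TMM 4 of the 6 were at least 4-fold higher in ovaries, against 10% of all microRNAs. miR-9c-5p, the main arm, had 1239 reads (900.1 RPM) in testes and 2326 (3420.1 RPM) in ovaries and was 3.8-fold higher in ovaries (95% counting interval 3.55 to 4.07), and miR-9c-3p had 93 against 17 reads. miR-79-3p was 1.64-fold higher in ovaries (95% counting interval 1.53 to 1.75). miR-306-3p had 25 reads against 12, and the interval of miR-306-5p included 1. miR-995-5p was 4.1-fold higher in ovaries (95% counting interval 2.73 to 6.26) and its more abundant partner miR-995-3p 2.23-fold higher in ovaries (95% counting interval 2.13 to 2.32). miR-13b-3p was 1.99-fold higher in ovaries (95% counting interval 1.84 to 2.16) and miR-283-5p 3.62-fold higher in ovaries (95% counting interval 2.46 to 5.39).

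Several abundant microRNAs differed by less than 2-fold on RPM. miR-275-3p, the second most abundant in both organs, had 220135 reads (159922 RPM) in testes and 125167 (184044 RPM) in ovaries and was 1.15-fold higher in ovaries (95% counting interval 1.14 to 1.16); all 4 arms of miR-275 and miR-305 lay within log2 ratios of -0.68 to -0.20. Further microRNAs of the ovary top 10 were higher there on RPM: miR-263a-5p by 1.69-fold, miR-33-5p, a microRNA of lipid metabolism, by 1.46-fold, and miR-279-3p by 1.55-fold. Under TMM these values toward ovaries were 3.24 for miR-263a-5p, 2.79 for miR-33-5p and 2.97 for miR-279-3p, and 2.2 for miR-275-3p. For miR-7-5p, with 535 reads in testes and 262 in ovaries, the interval ran from 0.869 to 1.17, so no difference was detectable at this depth by RPM. The growth regulator bantam-3p was 1.2-fold higher in testes (95% counting interval 1.14 to 1.26) and miR-8-3p 1.67-fold higher in testes (95% counting interval 1.62 to 1.73). Under TMM those ratios were 0.626 and 0.874, on the ovary side of 1. The hairpins of miR-309 to miR-6, known for their zygotic expression in the early embryo, were scarce in both organs, with 0.0761% and 0.0731% of reads; 1 of their 14 arms was counted, miR-5-5p, with a ratio of 1.05 (0.94 to 1.17).

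**Figure D3:**
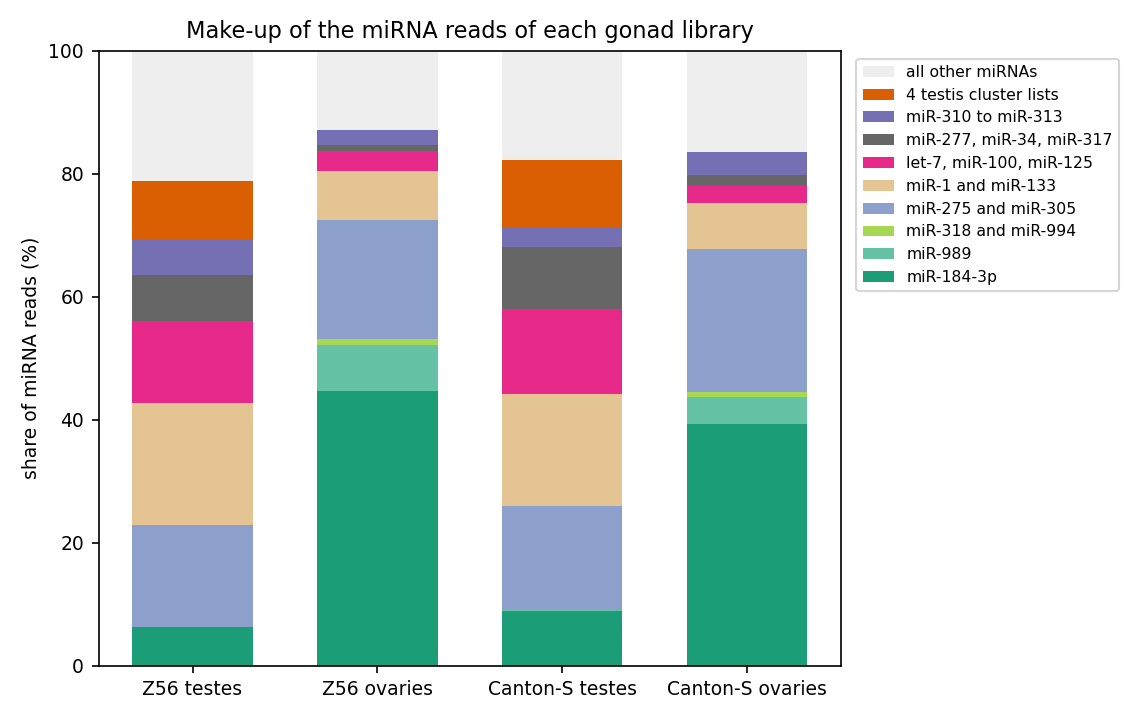
Stacked bars give the share of all microRNA reads, in percent, taken by selected microRNAs and clusters in the 4 gonad libraries, 1 library per bar. In Z56, miR-184-3p takes 44.7% of ovary and 6.27% of testis reads, and the 4 testis cluster lists take 9.62% of testis reads; in both ovary bars the share of those clusters is under the thickness of a line.

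MicroRNAs known from differentiated somatic tissue made up a large part of the testis reads. The let-7 complex (let-7, miR-100 and miR-125), induced with the adult transition, took 13.3% of testis and 3.21% of ovary reads and was 4.16-fold (95% counting interval 4.1 to 4.21) higher in testes. let-7-5p had 181557 reads (131896 RPM) in testes and 21612 (31778 RPM) in ovaries and was 4.15-fold higher in testes (95% counting interval 4.09 to 4.21), miR-125-5p was 4.4-fold higher in testes (95% counting interval 3.67 to 5.3), and miR-100-5p had 52 against 12 reads. Of the 6 counted arms 5 were at least 4-fold higher in testes by RPM, against 48.8% of all microRNAs. Under TMM 1 of the 6 was, miR-100-3p at 4.13, and let-7-5p stood at 2.17. miR-277, miR-34 and miR-317, which lie in 1 cluster and are known from adult ageing and metabolism, were 8.28-fold (95% counting interval 8.07 to 8.5) higher in testes when summed. All 6 arms were at least 4-fold higher by RPM, against 48.8% of all microRNAs, and 3 of the 6 under TMM, where miR-277-3p stood at 3.76, miR-317-5p at 2.5 and miR-277-5p at 2.27. miR-34-5p had 99343 reads (72169.9 RPM) in testes and 5895 (8668 RPM) in ovaries and miR-317-3p had 3448 reads (2505 RPM) in testes and 221 (325 RPM) in ovaries. miR-31b-5p had 42545 reads (30908 RPM) in testes and 1755 (2581 RPM) in ovaries, and miR-31a-5p had 40285 reads (29266 RPM) in testes and 4479 (6586 RPM) in ovaries, which made them 12-fold and 4.44-fold higher in testes; as near-identical microRNAs they may share reads.

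Markers of muscle and nerve were also higher in testes by RPM, miR-1-3p by less than the median microRNA. miR-1-3p had 272988 reads (198318 RPM) in testes and 54603 (80287 RPM) in ovaries and was 2.47-fold higher in testes (95% counting interval 2.45 to 2.49), while miR-133-3p, also of muscle, had 37 testis reads and 0 ovary reads. The log2 ratio of miR-1-3p, 1.30, lay below the median of 1.90 over all microRNAs, and its ratio under TMM was 1.29. For miR-133-3p the bound under TMM was 3.18. The neuronal miR-124-3p had 346 against 7 reads and was 24.4-fold higher in testes (95% counting interval 11.7 to 61.2), or 12.7-fold under TMM. In Canton-S it had 69 against 4 reads and was 4.92-fold higher in testes (95% counting interval 1.84 to 18.6). Its testis level was 251 RPM in Z56 and 49.5 RPM in Canton-S. Summed, the muscle list stood at 19.8% of testis and 8.03% of ovary reads, and the nervous system list at 0.0251% and 0.00103%. The part of somatic tissue in the testis ratios was not tested. Canton-S carcass gives a level to set beside them: of the 83 microRNAs at least 4-fold higher in Z56 testes, 64 had lower RPM in carcass than in Canton-S testes, 1 had no read in either and 18 had higher RPM in carcass. A lower level in carcass was not particular to that set, since of the 77 microRNAs between the thresholds 66 (85.7%, against 77.1% of the 83) also had lower RPM in carcass than in Canton-S testes. Among the 18 were miR-34-5p, miR-277-3p, miR-10-3p, miR-124-3p and miR-133-3p (chosen here after their values were seen). Not among them, and also picked after their values were seen, were let-7-5p, miR-125-5p, miR-31a-5p, miR-31b-5p and miR-317-3p, all lower in carcass. let-7-5p stood at 135890 RPM in Canton-S testes and 84981 in carcass, and miR-31b-5p at 29279 and 2736. All 38 counted arms of the 4 testis clusters had lower RPM in carcass, where those clusters took 0.0104% of reads. The 10 ovary-biased microRNAs all had at least 4-fold lower RPM in carcass than in Canton-S ovaries. For miR-184-3p this was close to the limit, at 392590 RPM in ovaries and 97848 in carcass. The share over all counted microRNAs was not computed for carcass against ovaries, so the count cannot be read as particular to the 10. In Canton-S, miR-1-3p alone took 53.1% of carcass, 18.3% of testis and 7.63% of ovary reads. Since RPM are shares, this lowers the RPM of other microRNAs in carcass by arithmetic, and its part in the carcass counts was not tested. The sex of the carcass flies is not given in the labels.

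Other testis-biased microRNAs lay outside these groups. miR-375-3p, known in mammals from pancreatic islets, had 11659 reads (8469.9 RPM) in testes and 11 (16.2 RPM) in ovaries and was 524-fold higher in testes (95% counting interval 293 to 1049), the third largest ratio in the plot of the largest ratios. The miR-2 and miR-13 hairpins split: of 7 counted arms 1, miR-2c-3p with 163 against 11 reads, was at least 4-fold higher in testes (48.8% over all microRNAs), and under TMM it stood at 3.82. miR-2a-3p was 2.4-fold higher in testes (95% counting interval 2.21 to 2.62), miR-2b-3p 2.65-fold higher in testes (95% counting interval 2.4 to 2.93), while miR-13b-3p was higher in ovaries. Their median log2 ratio, 0.92, lay below the 1.90 of all microRNAs. Of miR-12, miR-304 and miR-283, none of 5 counted arms passed 4-fold by RPM, against 48.8% of all microRNAs toward testes and 5.88% toward ovaries, while under TMM 1 did, miR-283-5p, at 6.94-fold toward ovaries; miR-12-5p had 7135 reads (5183 RPM) in testes and 1405 (2066 RPM) in ovaries and was 2.51-fold higher in testes (95% counting interval 2.37 to 2.66), while its neighbour miR-283-5p was higher in ovaries. Mirtrons, which are spliced introns processed without Drosha, were rare. The list took 0.0503% of testis and 0.03% of ovary reads, and 1 of its 7 counted arms, miR-1013-3p (31 against 3 reads, interval 1.59 to 26.1), passed 4-fold, against 48.8% of all microRNAs, and under TMM it stood at 2.66. miR-1003-3p, with 70 and 30 reads, had an interval that includes 1.

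Arms from hairpins that neighbour another microRNA gene (within 10 kb in the annotation) were at least 4-fold higher in testes in 61 of 105 cases, 58.1%, with a median log2 ratio of 2.36. Arms of hairpins standing alone passed in 22 of 65 cases, 33.8%, with a median of 1.06. Toward ovaries the shares were 5.71% and 6.15%. Of the 61, 37 belong to the 4 testis clusters. Without them (an alternative chosen after seeing the data) 24 of 68 neighbouring arms passed, 35.3%, with a median of 1.07, close to the values of arms standing alone.

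The share of the 5p arm could be compared for 51 hairpins. These had their own mature sequences and at least 50 reads over both arms in each library. Over all of them the 5p share differed by a median of 0.884 percentage points, but 36 had a 5p share outside 10% to 90% in both libraries, which leaves little room for a difference in points. Among the 15 with a 5p share of 10% to 90% in either library, limits chosen after seeing the data, the median difference was 11.2 points and the intervals were apart for 8. Among the other 36 they were apart for 5. The 4 hairpins whose major arm changed by the observed shares were mir-283, mir-1003, mir-277 and mir-988, the last pair named after their values were seen. The intervals were apart for mir-283 and mir-988, but only for mir-283 did both exclude 50%. For mir-988 the 5p share was 40.6% in testes (36.7% to 44.6%) and 51.8% in ovaries (45.4% to 58.2%). The 5p arm of mir-283 held 35% of 123 reads in testes (26.6% to 44.1%) and 68.1% of 113 in ovaries (58.7% to 76.6%). For mir-306, a hairpin of the miR-9c cluster, the 5p share was 85.2% of 81 reads in testes (75.6% to 92.1%) and 64.8% of 71 in ovaries (52.5% to 75.8%). Here the intervals overlap, as for mir-1003, where the 5p arm had 57.1% of 163 reads in testes (49.1% to 64.8%) and 42.3% of 52 in ovaries (28.7% to 56.8%). mir-14, known from cell survival and metabolism, had a 5p share of 60.8% of 3244 reads in testes (59.1% to 62.4%) and 74.5% of 2378 in ovaries (72.7% to 76.3%), and mir-965 of 62.3% of 199 reads in testes (55.2% to 69.1%) and 75.8% of 120 in ovaries (67.2% to 83.2%), with overlapping intervals. In Canton-S the 5p share of mir-283 was also lower in testes, at 40% of 145 reads against 61.4% of 57. There the intervals overlapped (32% to 48.5% and 47.6% to 74%). The Canton-S 5p share of mir-14 was instead higher in testes, at 63.7% against 40.8%, with intervals apart.

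In the miR-310 to miR-313 group, the arm shares moved in different directions. The 5p share of mir-311 was 24.3% of 16406 reads in testes (23.6% to 25%) and 40.7% of 2019 in ovaries (38.6% to 42.9%), and that of mir-310 was 0.654% of 18645 reads in testes (0.544% to 0.781%) and 6.64% of 813 in ovaries (5.03% to 8.58%), lower in testes in both cases. That of mir-312 was 6.96% of 37983 reads in testes (6.7% to 7.22%) and 2.15% of 12551 in ovaries (1.9% to 2.42%), higher in testes. In Canton-S the order was the reverse for mir-311, at 50.7% in testes and 26% in ovaries, and for mir-310, at 6.65% and 1.72%, and the same for mir-312, at 13.4% and 2.45%.

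**Figure D4:**
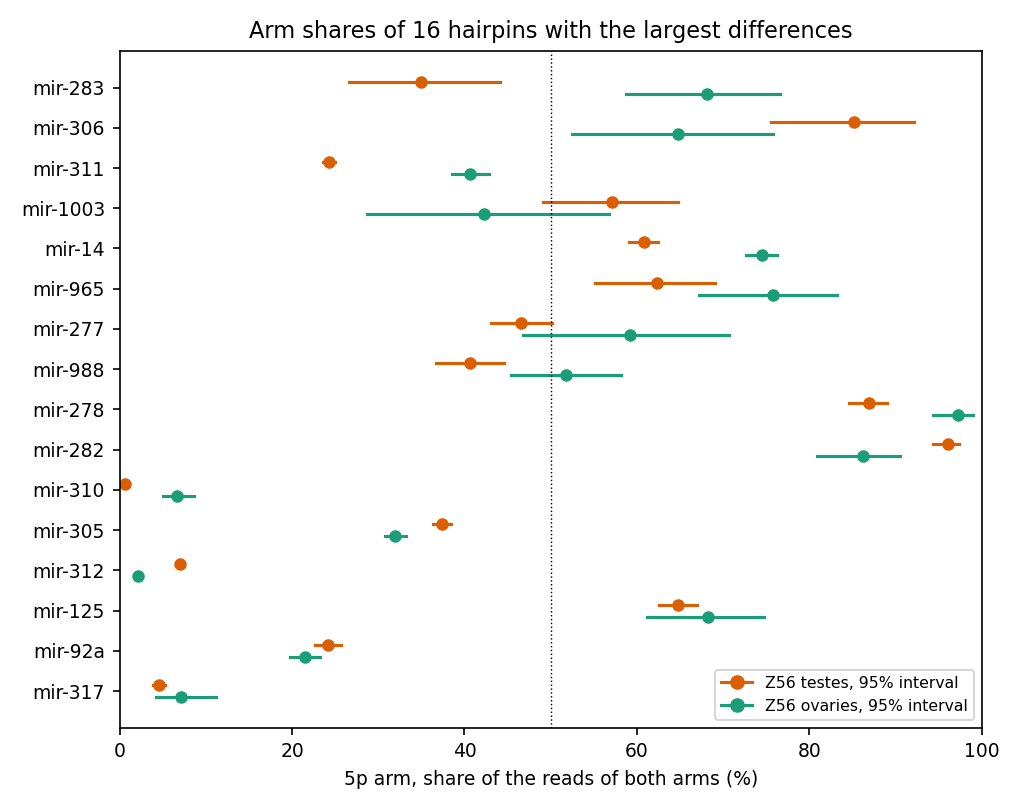
For the 16 hairpins with the largest differences, points give the share of the 5p arm, in percent of the reads of both arms, in Z56 testes and Z56 ovaries, with bars for the exact 95% binomial interval. The dotted line marks 50%; mir-283 lies on opposite sides of it in the 2 organs, with intervals apart.

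The same contrast in Canton-S, made from separate libraries, gave ratios in the same direction as Z56 for 137 of the 161 microRNAs counted in both strains and in the opposite direction for 24 (14.9%). Of these 24, 20 were higher in testes in Z56. The 161 include microRNAs with no read in at least 1 of the libraries. Where 1 tissue of a strain had no read, the ratio is a bound that had to point to the other tissue. The shared direction is therefore partly built in, here and in the counts below, and was not counted without those microRNAs. Over the 161 microRNAs, Pearson's r of the log2 ratios was 0.917 and Spearman's rho 0.88, as a description over microRNAs, which are not replicates. Over the 126 with a read in all 4 libraries, Pearson's r was 0.896. Canton-S had 63 of 172 microRNAs at least 4-fold higher in testes (36.6%) and 19 in ovaries (11%), with a median log2 ratio of 0.91. Of the 83 on the testis side in Z56, 75 were counted in Canton-S; 58 were at least 4-fold the same way, 15 the same way by less and 2 the other way. Of the 10 on the ovary side, 9 were at least 4-fold the same way, and the remaining one, miR-306-3p (named after its values were seen), had 8 ovary and 12 testis reads in Canton-S, a ratio toward ovaries of 2.34 (0.828 to 6.21). No microRNA was at least 4-fold in opposite directions. Conversely, of the 19 on the Canton-S ovary side, 16 were counted in Z56 and 9 were on that side there. With 1 library per strain and tissue, a strain difference has no test.

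The largest gap concerned miR-310-3p. It was 12.1-fold higher in testes in Z56 and 2.38-fold higher in ovaries in Canton-S, where it stood at 2295 RPM in testes and 5452 in ovaries. miR-313-3p, with 38 and 9 Z56 reads, and miR-311-3p showed gaps of 20.7-fold and 8.18-fold between the strains' ratios in the same sense. The gap of miR-312-3p, the most abundant 3p arm of the group, was 1.56-fold, smaller than the 1.85-fold gap of miR-313-5p. The 5p arms of miR-310 to miR-313 had RPM ratios above 1 in both strains, from 1.02 to 5.62 in Canton-S. However, the intervals of miR-310-5p in Z56 (0.804 to 1.57) and of miR-313-5p in Canton-S (0.927 to 1.13) included 1. Under TMM miR-310-5p and miR-313-5p lay below 1 in Z56. miR-92a-3p was 1.55-fold higher in ovaries in Z56 and 16.2-fold in Canton-S. miR-989-3p had the largest gap in the opposite sense: 623-fold higher in ovaries in Z56 and 27.6-fold in Canton-S, whose testes held 1592 RPM. On the testis side, miR-983-5p was 48-fold higher in Z56 and 357-fold in Canton-S. The Canton-S testis reads had been trimmed, masked for low complexity or quality and collapsed before further analysis, per the series text, and the part of that step in these gaps was not tested.

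**Figure D5:**
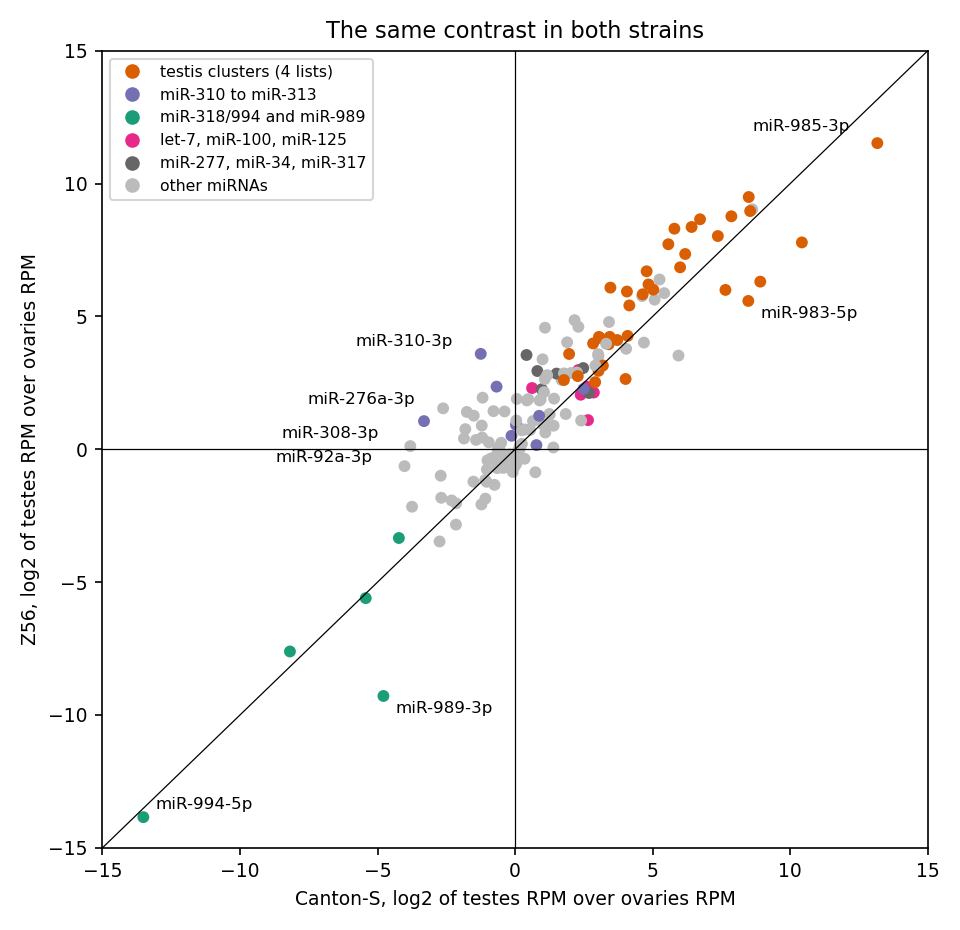
Each point is 1 of the 161 microRNAs counted in both strains, with the log2 ratio of testes to ovaries RPM in Canton-S on the horizontal and in Z56 on the vertical axis; ratios against 0 reads are bounds at 3 reads. Points at the upper left, such as miR-310-3p and miR-276a-3p, were higher in testes in Z56 and in ovaries in Canton-S.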

How the data were processed

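Small RNA libraries of Z56 testes and ovaries were compared, with Canton-S testes, ovaries and carcass beside them, grouped by the labels. For each mature microRNA of a precursor the authors deposited a read count and an RPM value, the count scaled to its column total. The submitters' processing notes list TopHat without a role, and the mapping settings and genome build of the small RNAs were not stated in any source used. Per the labels' protocols, Trizol was used for the RNA.

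The 476 rows were merged to 465 mature microRNAs: where 8 of them were listed for several precursors the highest count was taken, and miR-276a-5p and miR-276b-5p, listed with the same reads, became 1. RPM here use the merged totals. Python 3.11.15 with scipy 1.17.1 gave exact conditional 95% intervals for ratios and Clopper-Pearson 95% intervals for shares. A count of 0 was set at 3 reads, making the ratio a bound. MicroRNAs with at least 20 RPM in either library were counted, with 4-fold as threshold. Interval coverage was tested on simulated data. TMM factors came from edgeR 4.0.16 in R 4.3.3; no edgeR test was run. Other scalings, minimums, folds and ways of merging were tried as alternatives. Neighbouring hairpins lie within 10 kb in the Release 6 RefSeq table, where 254 of 256 precursors matched.

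Named were the 10 most abundant per library, the 12 largest ratios per direction at 100 RPM or more, 2 to 6 arms per list, the 6 largest arm differences, and any with opposite 4-fold ratios between strains. The members, clusters and lists were chosen with earlier results of these data known. For the cluster sums miR-2499 was put with miR-303, and miR-2498 with miR-991. The testis RNA-seq was not used here.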

Additional observations from a re-analysis of the deposited data

Results flagged for a closer look

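Some microRNAs lay at least 2-fold higher in testes in Z56 and at least 2-fold higher in ovaries in Canton-S, with counting intervals off 1 in both strains. With 1 library per strain and tissue the difference between the strains was not tested. On the log2 scale of testes over ovaries, miR-310-3p stood at 3.59 in Z56 and -1.25 in Canton-S. miR-276a-3p stood at 1.54 and -2.62, miR-2b-3p at 1.40 and -1.75, miR-2a-3p at 1.27 and -1.50, and miR-316-5p at 1.94 and -1.18. In Z56 the reads behind them were 18523 in testes and 759 in ovaries for miR-310-3p, 6091 and 1034 for miR-276a-3p, 2465 and 460 for miR-2b-3p, 3065 and 630 for miR-2a-3p, and 70 and 9 for miR-316-5p. The main arm of mir-316, miR-316-3p, was higher in testes in both strains, by 3.75-fold in Z56 and 2.67-fold in Canton-S.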

How the results depend on the processing

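No paired analysis was possible because each tissue has 1 library per strain and no test was run. The count of microRNAs at least 4-fold higher in testes, 83, was 57 under TMM, 63 under median-of-ratios factors or without miR-184-3p, 85 without an RPM minimum or with rows as deposited, 51 at a minimum of 100 RPM, 54 at 8-fold, 105 at 2-fold, 66 by whole intervals and 48 without microRNAs at 0 reads (an alternative chosen after seeing the data). The count toward ovaries, 10, was 17 under TMM, 14 under median-of-ratios factors or without miR-184-3p, 13 without a minimum, 7 at 100 RPM, 17 at 2-fold, 6 at 8-fold and 8 by whole intervals. The median log2 ratio, 1.90, was 0.96 under TMM, 1.14 under median-of-ratios factors, 1.14 without miR-184-3p and 1.08 without a minimum. The testis share of the 4 clusters, 9.62%, was 9.78% with rows as deposited, 9.81% with sums over precursors and 10.3% without miR-184-3p; the ovary share, 0.0632%, was 0.114% without miR-184-3p. Changes with a scaling follow from its construction, since each multiplies every ratio by 1 factor. Of 109 named microRNAs, 23 changed sides of 4-fold under TMM and 10 crossed 1. Under median-of-ratios factors 7 crossed 1, and 7 did so without miR-184-3p. None that was past 4-fold changed direction under the 3 scalings or sums. For the scalings this was fixed in advance, because they lower each log2 ratio by 0.94 or less. Depth limits ratios of scarce arms: 3 reads are 4.41 RPM in ovaries.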

Other observations

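Values of some microRNAs that lie in the Hox gene complexes, picked after they were seen, are given singly. miR-10-3p had 19310 reads (14028 RPM) in testes and 693 (1019 RPM) in ovaries and was 13.8-fold higher in testes (95% counting interval 12.8 to 14.9); miR-10-5p had 506 against 22 reads. miR-993-3p had 133 against 3 reads, and miR-iab-4-5p 177 against 14. In Canton-S testes miR-993-3p stood at 7.89 RPM and in carcass at 1046 RPM.

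miR-986-5p was among the 10 most abundant microRNAs of both Z56 libraries, with 28450 reads (20668 RPM) in testes and 7571 (11132 RPM) in ovaries, but stood at 856 and 1982 RPM in Canton-S. It was 1.86-fold higher in testes in Z56 and 2.32-fold higher in ovaries in Canton-S; under TMM the Z56 ratio was 0.969. miR-997-5p had 210 reads in Z56 testes and 0 in ovaries, against 7.17 RPM in Canton-S testes. miR-252-5p had 1939 against 33 reads and miR-274-5p 803 against 8, ratios of 29 and 49.6, with 940.1 and 176 RPM in Canton-S carcass.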
